A study of Mus musculus with 19 samples.

Results

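Chromosome 4 (Chr4) was profiled by array comparative genomic hybridization (aCGH) in 10 liver tumors and 9 unaffected livers, to see whether any part of it was lost. The tumors were 4 hepatocellular adenomas (HCA) and 6 hepatocellular carcinomas (HCC). All non-control probes that the arrays place on mouse Chr4 were taken, apart from 1 short interval. They numbered 13389 of 233923 placed probes, and 221360 of the placed probes were autosomal. In aCGH, sample and control DNA carry different dyes and are hybridized together, and the ratio of the dyes at a probe follows DNA copy number. The aCGH ratio is given on the log2 scale, centred so that the median autosomal probe of an array is 0.

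The samples came from 9 mice of a mixed strain background. All of them, the mice of the unaffected livers included, were Mad2(f/f) and carried AlbuminCre, in which the albumin promoter drives Cre recombinase in hepatocytes. A floxed allele is therefore expected to be deleted in hepatocytes and kept in other liver cells, and the DNA of a tumor piece holds both. Mad2 (Mad2l1) is a protein of the spindle assembly checkpoint, which delays the separation of chromosomes until all are attached to the spindle. The HCAs came from females, 2 of them Mad2(f/f) p53(f/f) (mice 2430 and 6199, aged 16.9 and 12 months) and 2 of them Mad2(f/f) p53(f/+) (mice 5884 and 5901, aged 14.2 and 12 months). The HCCs came from Mad2(f/f) p53ser246+ mice, a genotype whose strain label reads p53ser249. HCC tumors 4 and 2 were both from female 6240 (16.2 months), 1 was from female 6602 (13.2 months), and 3 were from males 6487, 6565 and 6642 (12.8, 14.7 and 12.3 months). Each mouse gave 1 unaffected liver, so 4 livers belong to the HCA mice and 5 to the HCC mice. The Trp53 genotype changes with the tumor type, so the effects of both cannot be told apart. Sex and scan day differ between the tumor types as well. The HCAs were scanned on days 1 and 2 (2 and 2 arrays) and the HCCs on days 2 and 3 (1 and 5 arrays). The livers were scanned on days 1, 2 and 3 (3, 2 and 4 arrays).

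An adenoma is a benign growth of hepatocytes and a carcinoma a malignant one. Loss of a chromosome in every cell of a diploid tumor lowers the log2 ratio by about 1, and normal cells or tumor cells without the loss bring the ratio back toward 0. Mouse Chr4 has its centromere at one end. Its distal part carries genes that lie on the short arm of human chromosome 1, an arm that is lost in many human tumors.

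Copy number differs by 1 on the X chromosome between a sample and its control of the opposite sex, and this gave the scale of the arrays. The X ratio was 0.954 ± 0.058 (SD, n = 6) in the livers of females and −0.946 ± 0.064 (SD, n = 3) in those of males, and in all 19 samples its sign was that of the sex label. Its size varied more in the tumors of females, from 0.322 in HCC tumor 2 of mouse 6240 to 1.069 in the HCA of mouse 5884. The cause was not tested, and shares of the X ratio below use that of the own liver. In the livers of females the X ratio was 0.310 with normexp in place of the deposited background subtraction and 0.542 with no background correction. The shares of the X ratio given for single tumors therefore hold on the deposited scale alone. On Chr4, between 97.4% and 99.9% of spots exceeded background clearly by the scanner's own flag. The noise between neighbouring Chr4 probes was 0.179 to 0.421, highest in the unaffected liver of mouse 6240, to which both of its HCCs were compared. Each 10-Mb bin held between 545 and 1263 probes. In 244 autosomal windows that varied most between livers, each of the 10 tumors correlated best with the liver of its own mouse.

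As a whole, Chr4 had nearly the same ratio in the tumors as in the unaffected livers. It was −0.037, −0.187, −0.071 and −0.030 in the HCAs of mice 2430, 5884, 5901 and 6199. In the HCCs the lowest value was −0.136, the median −0.101 and the highest −0.015, and in the unaffected livers these were −0.134, −0.054 and −0.009. The groups overlapped, with only the HCA of mouse 5884 and 2 HCCs below the lowest liver. All 19 values were below 0, the livers included, and in the livers Chr4 had the lowest mean ratio of the 19 autosomes. A ratio below 0 on Chr4 was therefore not particular to the tumors.

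The HCAs had a mean Chr4 ratio of −0.081 ± 0.073 (SD, n = 4), the HCCs one of −0.087 ± 0.053 (SD, n = 6) and the livers one of −0.070 ± 0.044 (SD, n = 9). HCA differed from unaffected liver by −0.011 (95% interval −0.082 to 0.060, exact two-sided permutation test, adjusted p = 0.73). HCC differed from it by −0.017 (95% interval −0.072 to 0.038, exact permutation test, adjusted p = 0.57). The difference of HCC from HCA was −0.0059 (95% interval −0.099 to 0.090, exact permutation test, adjusted p = 0.97). None of these passed the threshold of 0.05 after adjustment over the 19 autosomes, and a mean loss of 0.3, the cut-off used below for single bins, lay outside each interval. The sign of each difference turned under at least 1 alternative. It turned to 0.026 with normexp for HCA, to 0.0017 with normexp for HCC, and to 0.038 with no centring between HCC and HCA, where the other background corrections kept it. For comparison, 36.8% of the autosomes were called lower and 42.1% higher in HCA than in unaffected liver, 21.1% lower and 10.5% higher in HCC, and 5.26% in each direction between HCC and HCA. In size, the difference of Chr4 was the smallest of the 19 autosomes in HCA and was exceeded by that of 16 autosomes in HCC. Within scan days the differences were −0.023 (adjusted p = 0.62, exact permutation) for HCA and −0.017 (adjusted p = 0.62, exact permutation) for HCC, and between HCC and HCA −0.085 on the only day with both, where 3 arrays cannot give a p below 0.333.

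Chr12 and Chr13 had lower group means than Chr4 in the tumors on the same arrays, though not in every tumor. For Chr12 the HCAs were at −0.227 ± 0.143 (SD, n = 4), the HCCs at −0.208 ± 0.177 (SD, n = 6) and the livers at 0.010 ± 0.030 (SD, n = 9). For Chr13 these means were −0.251 ± 0.064 (SD, n = 4), −0.259 ± 0.142 (SD, n = 6) and −0.035 ± 0.081 (SD, n = 9). Chr4 was below Chr12 in 3 of the 10 tumors. They were the HCA of mouse 5884 (−0.187 and −0.062), HCC tumor 2 of mouse 6240 (−0.033 and −0.026) and the HCC of mouse 6565 (−0.015 and −0.0096). In the HCA of mouse 5884 it was below Chr13 as well (−0.172). The difference of Chr4 minus Chr12, which does not depend on the centring of an array, exceeded that of the livers by 0.226 in HCA and 0.201 in HCC, and Chr4 minus Chr13 by 0.204 and 0.207. These values are a description, since both chromosomes were chosen with earlier results known and the differences mostly restate the lower Chr12 and Chr13. In females alone the HCC values were 0.120 for Chr12 and 0.095 for Chr13, where 3 of the 6 HCCs are from females. With normexp they were 0.087 and 0.123, and with no background correction 0.121 and 0.131. The HCA values were 0.132 for Chr12 and 0.114 for Chr13 with no background correction.

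**Figure D1:**
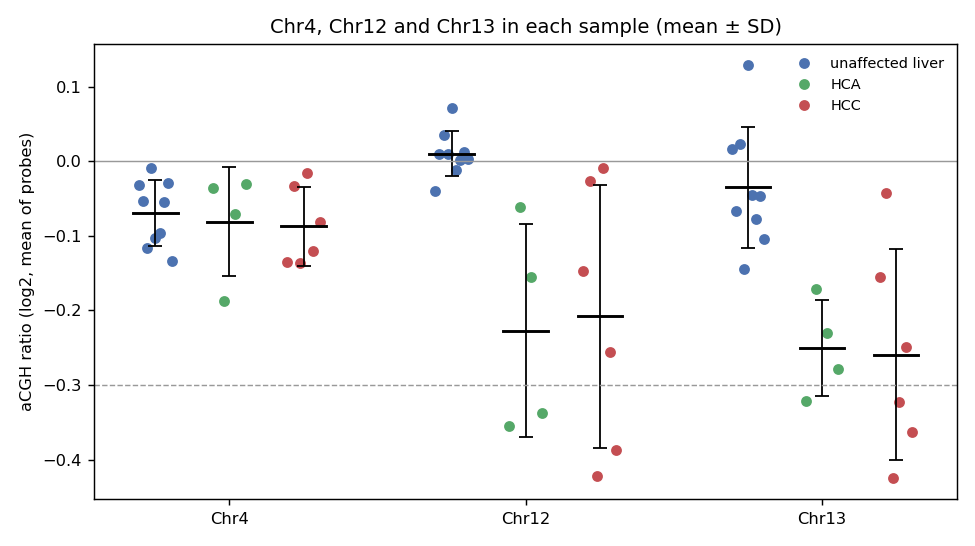
The aCGH ratio (log2) of Chr4, Chr12 and Chr13, with 1 point for each sample; horizontal lines are group means, bars are ± 1 SD and the dashed line is the cut-off of −0.3. On Chr4 the 4 HCAs and 6 HCCs lie between −0.187 and −0.015 and the 9 livers between −0.134 and −0.009, with the HCA of mouse 5884 lowest. On Chr12 and Chr13 single tumors go below −0.3.

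The chromosome was then divided into 16 bins of 10 Mb, numbered from the centromere end. The ratio was below 0 in 281 of the 304 bins of all samples and at or below −0.3 in 1 of them, bin 8 of the HCA of mouse 5884 (−0.356). Bin 8 was the lowest bin in 10 of the 19 samples, 6 of them livers, reaching −0.291 in the liver of mouse 6642. Bin 16, at the telomere end, was the highest in 13 of the 19, up to 0.096 in the liver of mouse 2430.

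**Figure D2:**
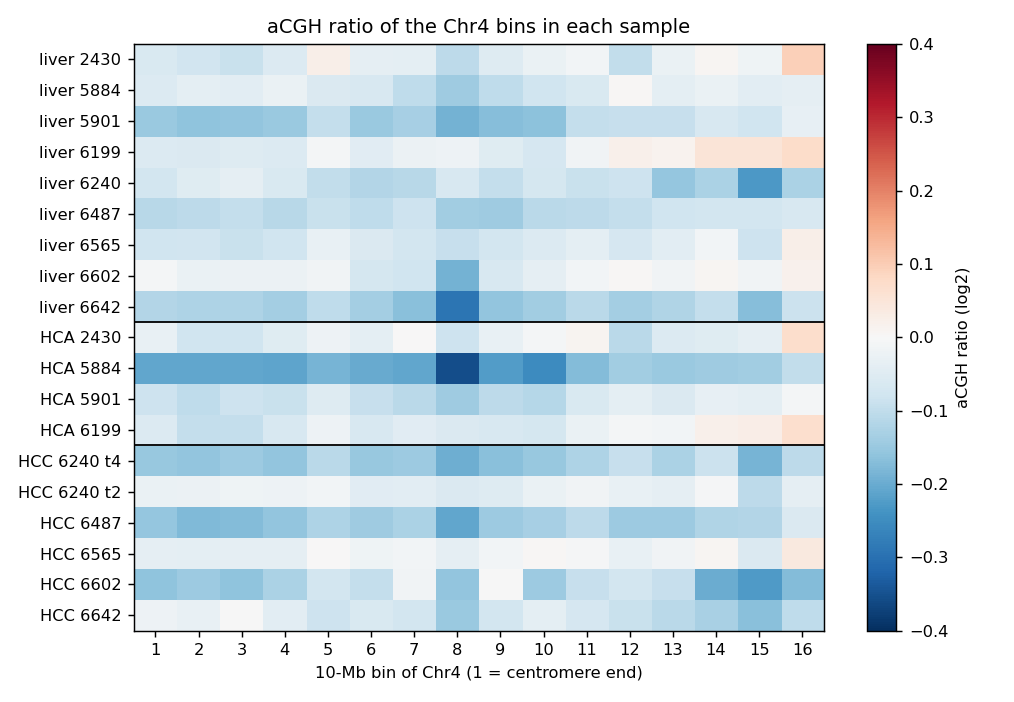
The aCGH ratio (log2, color scale from −0.4 to 0.4) of the 16 bins of Chr4, numbered from the centromere end, in each liver, HCA and HCC (rows, with the mouse number; t4 and t2 are the tumors of mouse 6240). Low values in bin 8 appear in livers and tumors alike, and the HCA of mouse 5884 is low along its whole length.

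None of the 16 bins passed the test between groups in either direction, by limma with Benjamini-Hochberg adjustment over all 257 autosomal bins, and none had an unadjusted p under 0.05. Of all autosomal bins, 26.5% were called lower and 18.7% higher in HCA than in unaffected liver, 19.5% lower and 4.28% higher in HCC than in unaffected liver, and 11.7% lower and 9.34% higher in HCC than in HCA. The differences of HCA from unaffected liver ranged from −0.042 in bin 2 to 0.026 in bin 15, with a median of −0.013 beside 0.028 over all bins. Those of HCC ranged from −0.070 in bin 15 to 0.026 in bin 9, with a median of −0.013 beside 0.013. The lowest end of any 95% interval was −0.133 in HCA and −0.154 in HCC, so a mean loss of 0.3 lay outside the interval in every bin.

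The lowest differences of HCC were in the distal bins 14, 15 and 16, toward the telomere end. They were −0.052, −0.070 and −0.058, with adjusted p of 0.30, 0.21 and 0.29 by limma. In bin 15 the HCCs were at −0.143 ± 0.062 (SD, n = 6), the HCAs at −0.047 ± 0.069 (SD, n = 4) and the unaffected livers at −0.073 ± 0.085 (SD, n = 9). HCC differed from HCA there by −0.096 (95% interval −0.199 to 0.007, limma, adjusted p = 0.18). The lowest sample of this bin was a liver, that of mouse 6240 (−0.229). With the mouse as a block the differences of bin 15 were −0.022 from unaffected liver (limma, adjusted p = 0.77) and 0.0037 from HCA (limma, adjusted p = 0.99).

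**Figure D3:**
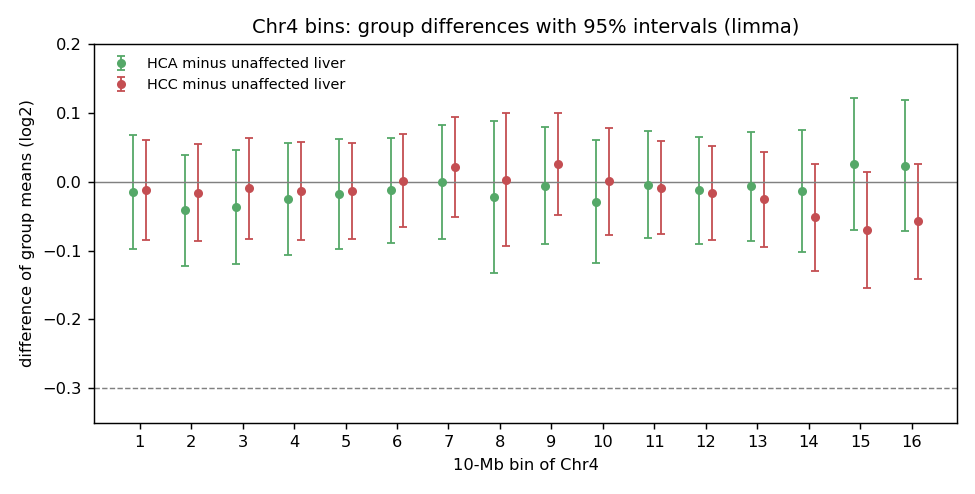
Difference of the group means (log2) of HCA and of HCC from unaffected liver in each of the 16 bins of Chr4; points are limma estimates, bars are 95% intervals and the dashed line is −0.3. Every interval includes 0, and the lowest points are those of HCC in bins 14 to 16, down to −0.070.

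Because the mice differ in inherited background, each tumor was also compared with the liver of its own mouse. On this scale 0 of 160 bins were at or below −0.3 and 0 were at or above 0.3, where over all autosomal bins 5.91% and 5.18% were. The differences lay between −0.215 and 0.142, and 130 of the 160 bins were within 0.1 of the own liver. At or below −0.2 there were 3 bins, beside 14.2% of all autosomal bins: bin 8 in the HCA of mouse 5884, and bins 14 and 15 in the HCC of mouse 6602. Chr4 as a whole was below the own liver in 3 of 4 HCAs and 3 of 6 HCCs. In 5 of the 10 tumors every bin was within 0.1 of the own liver.

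The HCA of mouse 5884 had the lowest Chr4 of all samples. Against its own liver it was at −0.134 (−0.187 in the tumor and −0.053 in the liver), and all 16 bins were below 0, with values from −0.061 in bin 16 to −0.215 in bin 8. This was −13.7% of the X ratio of its liver (0.973), and the difference ranked 11 in size among the 19 autosomes of the tumor. The arrays of this HCA and of its liver had the lowest Cy5 signal over background of all (1.82 and 1.80), whose part in the difference was not tested. The other HCAs stayed close to their livers, at −0.0053 (mouse 2430), 0.046 (mouse 5901) and −0.021 (mouse 6199). In the other HCA with p53(f/+), of mouse 5901, 0 bins were below the own liver. This HCA was scanned on day 2 and its liver on day 1, while each other tumor shared the scan day of its liver. The part of the scan day in the difference was not tested.

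Relative to the own liver, the bins of the HCC of mouse 6602 had the widest range along Chr4 among the 10 tumors (0.279), while the range of the ratio itself was wider in the HCA of mouse 5884 (0.259 against 0.227). Against its own liver it was at −0.092 over bins 1 to 6, at 0.054 over bins 7 to 9, at −0.085 over bins 10 to 13 and at −0.205 over bins 14 to 16, stretches that were chosen after the values were seen. The distal stretch (chr4:130003009-155625688, mm9, 2881 probes) was at −20.9% of the X ratio of its liver, and 2061 of its probes were below the liver. Below the liver were also 2600 of 4326 probes in bins 1 to 6, 850 of 2075 in bins 7 to 9 and 2388 of 4107 in bins 10 to 13. In the distal stretch the ratio itself was −0.202, under all 9 livers, which lay between −0.159 and 0.057, and under the other 5 HCCs, between −0.135 and −0.0043. With normexp in place of the deposited background subtraction the stretch was at −0.105 against the own liver, and with no background correction at −0.099. The same stretch was 0.036 and 0.114 above the own liver in tumors 4 and 2 of mouse 6240, and in the other HCCs it lay between −0.033 and 0.022. The liver of mouse 6602 had the second-highest noise between neighbouring probes (0.332), whose part in these values was not tested.

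Tumors 4 and 2 of mouse 6240, which share a liver, differed from it by −0.032 and 0.071 over Chr4. Both rose relative to the liver in the distal bins, to 0.043 and 0.125 in bin 15, where that liver is the lowest of the 9. The HCC of mouse 6642 was 0.052 above its liver, most of it in bins 1 to 10 (from 0.020 to 0.142) and little in bins 11 to 16 (from −0.034 to 0.047). In the HCCs of mice 6487 and 6565 the bins stayed between −0.077 and 0.063 of the own liver.

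**Figure D4:**
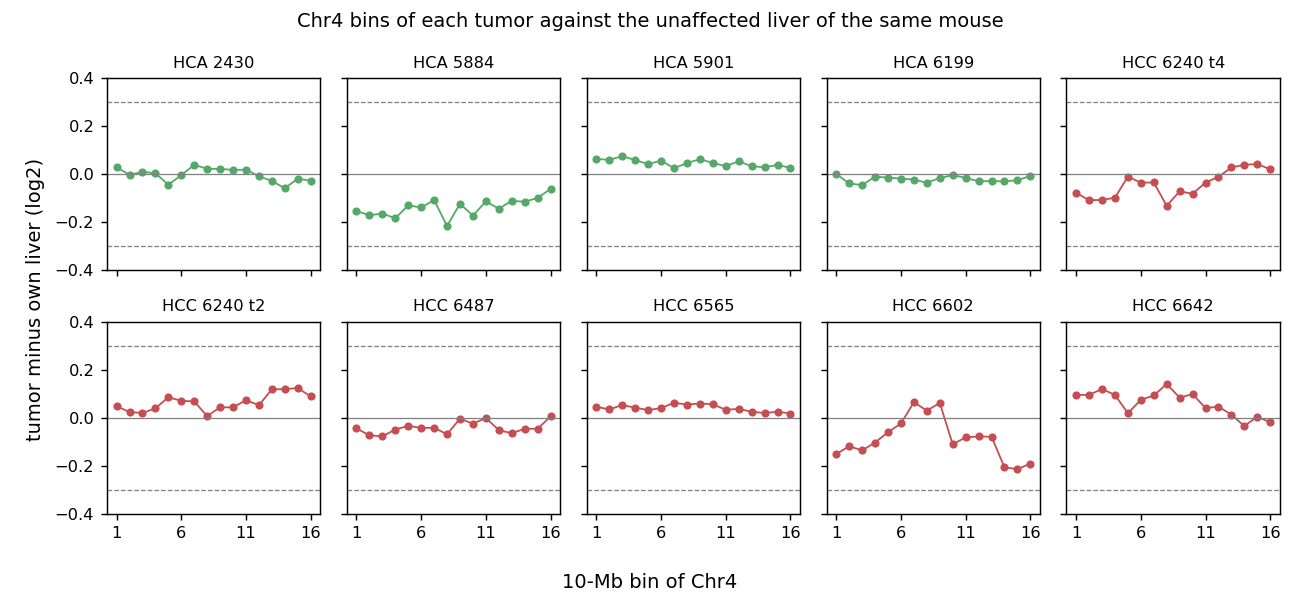
Difference (log2) between each tumor and the unaffected liver of the same mouse in the 16 bins of Chr4, with 1 panel for each tumor (HCA green, HCC red) and dashed lines at −0.3 and 0.3. No point crosses either line; the HCA of mouse 5884 lies below 0 in all bins, and the HCC of mouse 6602 falls to about −0.2 in bins 14 to 16.

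Smaller changes were sought in 669 windows of 20 neighbouring probes, with a median size of 161 kb, after the median difference between tumor and own liver over Chr4 had been taken away. Of the 6690 windows of all tumors, 3 were at or below −0.5 and 0 at or above 0.5, while over all autosomes 0.028% and 0.0226% were. The count of windows beyond 0.5 was 5 with normexp, 0 with no background correction and 19 in windows of 10 probes, and it was 1 without HCC tumor 2 of mouse 6240 or without the liver of that mouse. At 0.3 these were 12 and 18 windows, where 0.227% and 0.338% of all autosomal windows were. Of the 30 windows beyond 0.3, 10 were in the HCC of mouse 6602, 8 in tumor 4 of mouse 6240 and 6 in the HCA of mouse 5884, and 26 were in a window beyond 0.3 in 1 tumor alone. In 18 of the 30 the own liver was the lowest or the highest of the 9 livers, and its part in these differences was not tested.

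Neighbouring windows formed 1 focal loss, in HCC tumor 2 of mouse 6240. The 50 probes of the stretch with the largest summed difference (chr4:115981950-116291633, mm9, 309.7 kb) were on average at −0.535 against the own liver, and 49 of the 50 were below it. The ratio of the tumor was −0.635 there, where the 9 livers lay between −0.163 and −0.062 and the other tumors between −0.230 and −0.066. The 40 probes before the stretch and the 40 after it were 0.108 and 0.095 above the own liver. The difference was −51.3% of the X ratio of the own liver (1.042), while the X ratio of the tumor itself was 0.322. It was −0.481 with normexp and −0.379 with no background correction, and the X ratio was smaller in both. With normexp the X ratio fell by more than the loss did, from 0.954 to 0.310 in the livers of females. The share of −51.3% therefore holds on the deposited scale alone. Tumor 4 of the same mouse was at −0.099 against that liver in the stretch, within the range of the other tumors (−0.151 to 0.069). The genes in the stretch were not analysed here. The stretch and its ends were chosen on these values, which are a description with no test.

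**Figure D5:**
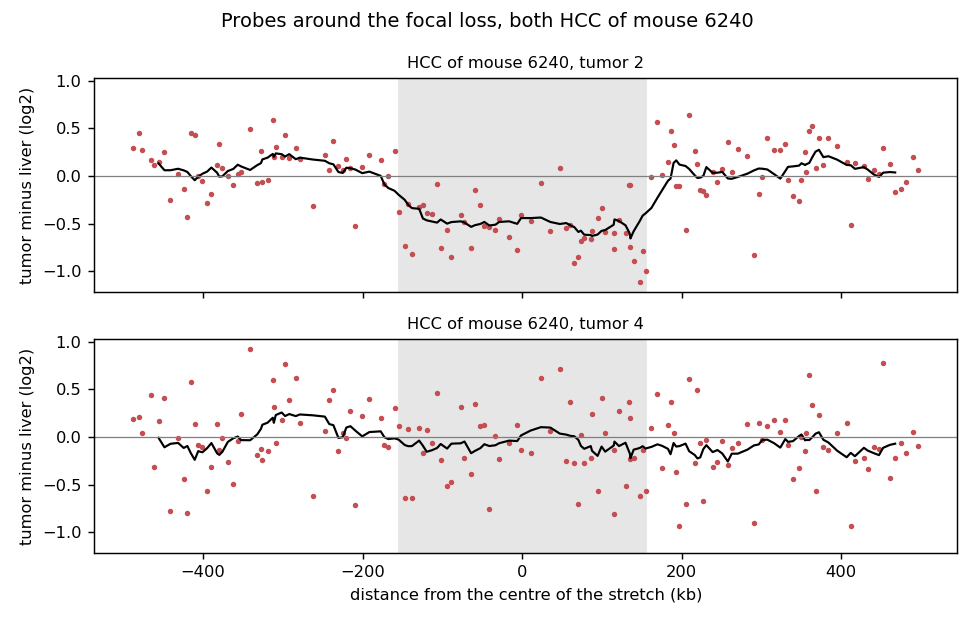
Difference (log2) between tumor and own liver at single probes against the distance from the centre of the 309.7-kb stretch (kb), for HCC tumor 2 (top) and tumor 4 (bottom) of mouse 6240; the black line is the running mean of 10 probes and the shaded band the stretch. In tumor 2 the mean is −0.535 inside the band and 0.108 and 0.095 in the 40 probes on either side, and in tumor 4 it is −0.099 inside.

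The other window at or below −0.5 (chr4:143519849-143849574, mm9) was in the HCC of mouse 6602, at −0.551 against the own liver once the Chr4 median was taken away. Tumor 4 of mouse 6240 was at −0.344 there. The livers differed in this window, from −0.248 in mouse 6642 to 0.271 in mouse 6602, and the ratio was −0.377 in the tumor of mouse 6602 and −0.511 in tumor 4 of mouse 6240. Of the 10 tumors, 9 were below the own liver in this window. A window in which 2 tumors were above 0.3, chr4:136344839-136465613, held the HCA of mouse 5884 (0.320) and tumor 4 of mouse 6240 (0.319), and the ratio of the liver of mouse 6240 was the lowest of all livers there (−0.413).

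Windows with a wide range between livers were more frequent on Chr4 than on the autosomes as a whole (24 of 669, or 3.59%, against 2.21%, at a range of 0.5 or more, a description with no test). They lay in 5 clusters, 3 of which had at least 5 windows, and over the 24 windows 8 of the 10 tumors correlated best with the liver of their own mouse, the HCCs of mice 6487 and 6602 being the exceptions. Between chr4:62111694 and 83082217 (10 windows, reaching into bin 8), the livers of mice 5884, 6602 and 6642 were at −0.307, −0.377 and −0.517 and the other 6 between −0.148 and 0.064. The tumors of those 3 mice were the lowest too, at −0.468, −0.274 and −0.371. In the cluster chr4:111656718-113309541 (5 windows), mouse 2430 stood apart, with −0.523 in the liver and −0.550 in the HCA. The livers of the other females were between 0.166 and 0.410 and those of the 3 males between −0.147 and −0.144, and the sex of the mouse and the control DNA of the opposite sex cannot be told apart. Some tumors departed from their livers in this cluster, the HCA of mouse 5884 by −0.308 (0.103 against 0.410), with the HCC of mouse 6602 at 0.142 against 0.341 and the HCC of mouse 6642 above its liver by 0.175. In the cluster chr4:140922682-148264910 (7 windows), the liver of mouse 6240 (−0.384) was lowest, with its tumors at −0.351 and −0.268, followed by the livers of mice 6642 (−0.323) and 6565 (−0.222). The HCC of mouse 6602 was at −0.279 there against 0.012 in its liver, and the HCA of mouse 5884 differed from its liver by −0.135.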

How the data were processed

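DNA of 19 samples was labeled with Cy5 and hybridized with Cy3-labeled liver DNA of the opposite sex on Agilent arrays of 243301 spots. The authors extracted the intensities with Feature Extraction 10.5.1.1, with background subtraction, spatial detrending and linear dye normalization, and deposited the intensity of each channel and the log10 ratio of Cy5 over Cy3. Probes are placed on mm9 (NCBI37). The deposited table of all samples held the same log10 ratios (largest difference 5e-10) and was used only for that check. Of 13660 Chr4 spots, 95 in 1 interval are not reported here.

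For this work the log10 ratios were turned into log2, outlier-flagged spots were left out, spots of a probe were averaged, and each array was centred on its autosomal median. No spot on Chr4 was saturated. The value of a region is the mean of its probes. Samples were grouped by the labels. Group means were tested by exact permutation, two-sided, with Benjamini-Hochberg adjustment over 19 autosomes or 4 differences of chromosomes and intervals by inversion of the test. Bins of 10 Mb with at least 50 probes were tested by limma 3.58.1 in R 4.3.3 (257 autosomal bins, threshold 0.05). Other steps used Python 3.11.15, numpy 2.4.6, scipy 1.17.1 and pandas 2.3.3. The tests were checked on simulated data. Focal differences are means of 20 probes against the own liver, less the median over Chr4. The number of arrays limits the precision. The 2 HCCs of mouse 6240 share an animal, so p-values that count both as separate samples may be too small. Pairs come from the animal. Over the 257 bins the deviations of a tumor and its own liver from their group means had a median correlation of 0.17, above 0.1 in 6 of 10 tumors.

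Alternatives covered the background correction, centring, probe filters, bin and window size, cut-offs, tests, blocks by mouse and scan day, sex, and each sample left out. The regions and lists were chosen with earlier results of these data known. Bins, windows and stretches are named where they are the lowest, the highest or beyond a cut-off. Planned results for listed genes were not run, since the files used pair no probe with a gene and no annotation of mm9 was used here.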

Additional observations from a re-analysis of the deposited data

Results flagged for a closer look

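In 93 groups of 4, 6 or 9 values, 3 values stood apart from the rest of their group by Dixon's test. Chance gives about 1 in 20 groups, a rate that 3 of 93 does not exceed. The HCA of mouse 5884 was at −0.209 in bin 2 of Chr4 and at −0.206 in bin 3, while the other HCAs lay between −0.101 and −0.079 and between −0.095 and −0.079. The focal stretch of HCC tumor 2 of mouse 6240 was at −0.535 against the own liver, while the other HCCs lay between −0.151 and 0.069, and it had been chosen for this value.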

How the results depend on the processing

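In every alternative run and with any 1 sample left out, 0 Chr4 bins were called in each comparison. The runs included bins of 5 and 20 Mb and the mouse as a replicate block. Chr4 as a whole was never called either. Its small differences changed sign. HCA against liver was 0.026 with normexp, 0.0039 with no background correction and 0.0045 centred on the autosome means, and −0.028 to 0.024 with 1 sample left out. HCC against liver was 0.0017 with normexp and 0.0057 with no centring. HCC against HCA was 0.038 with no centring, 0.026 with the replicate block, and −0.041 to 0.011 with 1 sample left out. It was 0.024 when the differences between tumor and own liver, averaged for each mouse, were compared between the groups. Bin 2 in HCA was 0.0079 with normexp, and bin 15 between HCC and HCA 0.0037 with the replicate block. The causes were not tested.

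Chr4 minus Chr12 and Chr13 against liver stayed above 0 in each alternative, but its size moved with the background correction, as low as 0.087 for Chr12 in HCC with normexp. By the planned permutation test the adjusted p was 0.0032 to 0.014. This too is a description, since Chr12 and Chr13 were chosen with earlier results of these data known. In females alone the differences were 0.219 and 0.120 for Chr12 in HCA and HCC, and 0.212 and 0.095 for Chr13. Their adjusted p by permutation were 0.079, 0.079, 0.079 and 0.31. For Chr12 in HCA (difference 0.226) the adjusted p was 0.076 by the Mann-Whitney test. By exact permutation within scan days it was 0.1 for Chr12 and 0.067 for Chr13 in HCA (differences 0.202 and 0.179). For Chr13 in HCC it was 0.053 by that test (difference 0.214). By paired sign flips the adjusted p was 0.25 in HCA (differences 0.202 and 0.179) and 0.125 in HCC (0.243 and 0.258). Sign flips cannot give a p below 0.125 for 4 mice or 0.0625 for 5. In HCA the differences were 0.168 to 0.316 for Chr12 and 0.166 to 0.265 for Chr13 with 1 sample left out. Without the HCA of mouse 2430 or 6199 the adjusted p was above 0.05 by permutation. With the replicate block in limma the differences were 0.202 and 0.239 for Chr12 in HCA and HCC, and 0.179 and 0.258 for Chr13.

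At a cut-off of 0.2, 3 bins were below the own liver. Focal windows beyond 0.5 numbered 5 with normexp, 0 with no background correction, 1 with the tumors of mouse 6240 averaged, 30 at a cut-off of 0.3, 19 in windows of 10 probes and 1 to 3 with 1 sample left out. The focal loss was −0.379 with no background correction. The X ratio of female livers was 0.310 with normexp, 0.542 with no background correction and 0.356 without the 1% most variable probes, a filter that removes X probes by construction. Results for listed genes were not run.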
